A study of Mus musculus with 4 samples.

Results

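Disease-associated microglia are microglia, the resident macrophages of the brain, that have moved from surveying the tissue to engulfing debris around damaged or dying cells. The receptor TREM2 binds lipids, lipoproteins and cell debris at their surface and signals through its adaptor TYROBP, also called DAP12, and the later steps of the change depend on it. The genes of this state are known for their handling of lipids, their lysosomal and adhesion proteins, and for rising in brains with neurodegeneration or undegraded storage material. A set of 10 such genes was taken by symbol, namely Trem2, Tyrobp, Apoe, Lpl, Cst7, Gpnmb, Itgax, Clec7a, Lgals3 and Spp1, and looked up by Entrez identifier in a table of 12700 genes. Of these, 9 were in the table. The level of Itgax, which codes for an integrin subunit, was not analysed here, and only its promoter was read. The choice of the genes used no measured value of these libraries, but it was made with earlier results of these data known.

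The libraries come from the mouse model of Hunter syndrome (mucopolysaccharidosis type II, MPS II), in which the gene Ids is knocked out and the lysosomal enzyme iduronate 2-sulfatase is missing. Ids-ko mice and their wild-type (wt) littermates, all C57BL/6 and 9 months old, gave 2 areas: the cerebral cortex (Cx), and an area holding midbrain, diencephalon and hippocampus (M). RNA of 7 mice was pooled for each of the 4 conditions, named CxH (cortex, Ids-ko), CxWT (cortex, wt), MH (M area, Ids-ko) and MWT (M area, wt), and 1 library was made from each pool. Messenger RNA was sequenced on a SOLiD instrument, and the values are reads per gene. A test on the reads of 2 libraries therefore compares those libraries and not the conditions, and every interval, standard error (±) and p-value below covers counting error only.

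Reads on genes numbered between 16380080 (MWT) and 23475080 (CxH) per library, with a median of 567 to 738 reads per gene. Levels are counts scaled to the number of aligned reads of each library (reads per 1000000, RPM), and the floor of 3 reads lay between 0.0779 and 0.104 RPM. CxH followed its label, and the libraries labelled CxWT, MH and MWT did not in Ids, in area markers or in both. Ids, on chromosome X, had 135 RPM in CxH, 354 in CxWT, 368 in the library labelled MH and 155 in the library labelled MWT. The library labelled MH, from Ids-ko mice by its label, thus had the highest Ids level of all 4. Marker genes of the area went against the labels as well. The summed level of 5 cortical neuron markers (Tbr1, Fezf2, Emx1, Cux2 and Lamp5) was 317.5 RPM in CxH, 68.5 in CxWT, 302 in the library labelled MH and 57.9 in the library labelled MWT. That of 6 midbrain and diencephalon markers (Slc17a6, Tcf7l2, En1, Th, Slc6a3 and Slc6a4) was 20.3, 391, 30.4 and 355 RPM in the same order. The libraries labelled CxH and MH were therefore high in cortical markers and low in midbrain markers, and CxWT and MWT were the reverse. Libraries keep their labels as names throughout, no library was moved to another group, and all 6 pairs of libraries are given. The pairs CxH over MH and MWT over CxWT are those in which the area markers lay close together and Ids differed, with 135 against 368 RPM and 155 against 354 RPM.

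All 9 genes had reads in every library, from 39 reads (Cst7 in CxWT) to 31600 (Apoe in CxH). Per kilobase of transcript, which allows genes to be compared with each other, Apoe was the most abundant in CxH at 592 RPKM, which is RPM divided by transcript length in kilobases. Tyrobp followed at 33.5 and Trem2 at 10.96 RPKM. Spp1 (7.38), Gpnmb (4.66), Lgals3 (3.73), Cst7 (3.48), Lpl (2.28) and Clec7a (1.68) were lower in the same library. In bulk tissue, fewer cells of a type and less RNA per cell cannot be told apart, so none of these levels is a level per microglial cell. Apoe is made by astrocytes as well as by microglia, and Lpl and Spp1 are also made by some neurons.

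The receptor and its adaptor were high in the same pair of libraries. Trem2, on chromosome 17 from 48485726 to 48493472 of the NCBI37/mm9 build, codes for the receptor. It had 11.9 RPM in CxH (95% exact Clopper-Pearson interval 10.9 to 13.1), 6.13 in CxWT (5.32 to 7.02), 6.45 in MH (5.66 to 7.32) and 10.05 in MWT (8.93 to 11.3). CxH and MWT were high, CxWT and MH were low, and the intervals of the high and low libraries did not overlap. Tyrobp, on chromosome 7 from 31198807 to 31202596, codes for the transmembrane adaptor that carries the signal of TREM2. Its level was 18.9 RPM in CxH (17.6 to 20.3), 7.38 in CxWT (6.49 to 8.36), 7.44 in MH (6.59 to 8.37) and 21.0 in MWT (19.4 to 22.7). Again CxH and MWT stood above the others, here by more than 2-fold, and neither CxH and MWT nor MH and CxWT differed beyond counting error.

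Of the lipid genes, Apoe differed little between libraries and Lpl had another order. Apoe, on chromosome 7 from 20281458 to 20284515, codes for the apolipoprotein that carries lipids in the brain and binds TREM2. It had 821 RPM in CxH (812 to 829.8), 657.5 in CxWT (649 to 666), 642 in MH (634 to 649.9) and 667 in MWT (657 to 676). CxH was the highest, and its level was 1.28-fold that of the lowest, MH, while MWT and CxWT did not differ beyond counting error. Lpl, on chromosome 8, codes for lipoprotein lipase, which frees fatty acids from lipoproteins. Lpl had 9.38 RPM in CxH (8.43 to 10.4), 4.49 in CxWT (3.80 to 5.27), 10.2 in MH (9.22 to 11.3) and 5.80 in MWT (4.96 to 6.75). Here CxH and MH, the libraries with cortical markers, were high and did not differ beyond counting error, and CxWT and MWT were low.

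Lysosomal and surface genes of phagocytes ranged from 3.202-fold (Cst7) to 7.48-fold (Clec7a) between their highest and lowest libraries. Cst7, on chromosome 2 from 150396151 to 150404680, codes for cystatin F, an inhibitor of lysosomal cysteine proteases. It had 3.43 RPM in CxH (2.87 to 4.07), 1.16 in CxWT (0.825 to 1.59), 1.07 in MH (0.765 to 1.46) and 2.31 in MWT (1.79 to 2.94). CxH and MWT were high, and the low pair rested on 39 and 40 reads. Gpnmb, on chromosome 6 from 48986517 to 49020928, codes for a transmembrane glycoprotein found in lysosomes and phagosomes. Its level was 17.7 RPM in CxH (16.4 to 19.1), 4.13 in CxWT (3.48 to 4.88), 6.397 in MH (5.61 to 7.26) and 11.99 in MWT (10.8 to 13.3). All 4 libraries differed from their neighbours in order, with a 4.28-fold range from CxWT to CxH.

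Clec7a, on chromosome 6 from 129411611 to 129422790, codes for dectin-1, a phagocytic receptor. It had 3.82 RPM in CxH (3.23 to 4.49), 3.00 in CxWT (2.45 to 3.65), 1.82 in MH (1.41 to 2.31) and 13.6 in MWT (12.3 to 15.0). MWT stood alone, 7.48-fold above MH and 3.56-fold above CxH, which is the widest range among the 9 genes. Lgals3, on chromosome 14 from 47987426 to 48005835, codes for galectin-3, a sugar-binding protein released by activated phagocytes that also binds damaged lysosomes. Its level was 5.30 RPM in CxH (4.60 to 6.08), 1.84 in CxWT (1.41 to 2.36), 1.28 in MH (0.947 to 1.70) and 3.83 in MWT (3.15 to 4.62). CxH was highest and MWT next, both above the other two libraries. Spp1, on chromosome 5 from 104864137 to 104870069, codes for osteopontin, a secreted adhesion protein. It had 11.1 RPM in CxH (10.1 to 12.2), 21.6 in CxWT (20.05 to 23.2), 8.56 in MH (7.65 to 9.56) and 31.1 in MWT (29.1 to 33.2). Spp1 was high in CxWT and MWT, the libraries with midbrain markers, and within each pair of like area markers the library with less Ids was the higher.

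**Figure D1:**
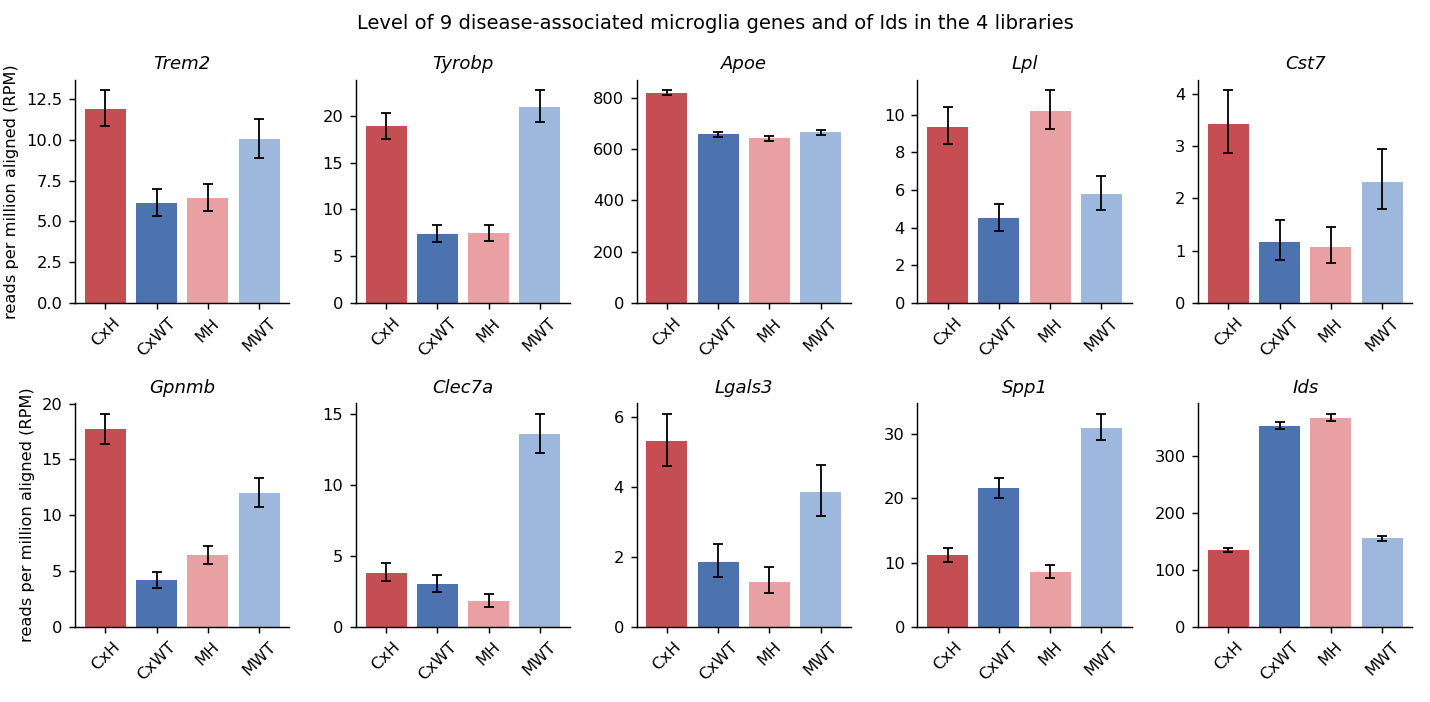
Level in RPM (linear axes from 0) of the 9 genes and of Ids in the libraries CxH, CxWT, MH and MWT, 1 library each; whiskers are exact 95% Clopper-Pearson intervals. Trem2, Tyrobp, Cst7, Gpnmb and Lgals3 are high in CxH and MWT, where Ids is low, Clec7a is high in MWT alone, and Lpl and Spp1 split the libraries as the area markers do.

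CxH and MWT held both highest levels in 7 of the 9 genes, against 9.02% of all genes. For Apoe (MWT over CxWT) and Clec7a (CxH over CxWT), the step between these libraries and the next was within counting error, so 5 of the 7 (Trem2, Tyrobp, Cst7, Gpnmb and Lgals3) held the order beyond it. The exceptions were Lpl, highest in MH and CxH, and Spp1, highest in MWT and CxWT. CxH was the highest library in 5 genes, MWT in 3 and MH in 1. The lowest library was MH in 5 genes and CxWT in 4.

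In the pairs that the labels set as Ids-ko over wt, 4 of the 9 genes were called in opposite directions. Lpl was called higher in both pairs and Spp1 lower in both. By the area markers, each of these pairs set a library high in cortical markers over one high in midbrain markers. All 12700 genes were tested with a Poisson likelihood ratio test, and called where p was under 0.05 and the ratio passed 0.7 on the log2 scale in either direction. In CxH over CxWT, 6 of the 9 genes were called higher (Trem2, Tyrobp, Lpl, Cst7, Gpnmb and Lgals3) and 1 lower (Spp1), against 9.46% and 11.5% of all genes. The largest log2 ratio was that of Gpnmb, 2.097 ± 0.13, and that of Spp1 was -0.96 ± 0.09. Apoe had 0.32 ± 0.01 and Clec7a 0.35 ± 0.19, and neither was called. In the library labelled MH over that labelled MWT, 1 gene was called higher (Lpl, 0.82 ± 0.13) and 6 were called lower (Tyrobp, Cst7, Gpnmb, Clec7a, Lgals3 and Spp1), against 12.3% and 12.7% of all genes. The lowest ratio was that of Clec7a, -2.90 ± 0.19, followed by Spp1 at -1.86 ± 0.09, Lgals3 at -1.58 ± 0.25 and Tyrobp at -1.50 ± 0.10. Trem2 had -0.64 ± 0.13 and was not called, and Apoe had -0.05 ± 0.01. The median over the 9 genes was 1.06 in CxH over CxWT and -1.11 in MH over MWT, beside -0.09 and -0.07 over all genes. Tyrobp, Cst7, Gpnmb and Lgals3, or 4 of the 9, were called higher in the first pair and lower in the second, against 0.433% of all genes. Adjusting the ratios for the GC content and length of transcripts took Trem2 (0.68) and Spp1 (-0.68) below the threshold in CxH over CxWT. The Lpl call in MH over MWT was lost with an exact test that assumes a variation of 0.2 between pools and with a log2 threshold of 1. In the same pair, the Gpnmb call (-0.91) was lost with a log2 threshold of 1. The Cst7 call there (40 and 67 reads) was lost with a minimum of 100 reads in either library.

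In the pairs with like area markers, 6 of the 9 genes were called higher in the library with less Ids, in both pairs. These were Trem2, Tyrobp, Cst7, Gpnmb, Clec7a and Lgals3, against 0.638% of all genes (81 of 12700) that were called higher in both CxH over MH and MWT over CxWT. In CxH over MH the background was 2.43% called higher and 1.06% called lower, and in MWT over CxWT it was 2.11% and 5.43%. None of the 9 was called lower in either pair. The median log2 ratio over the 9 genes was 1.07 in CxH over MH and 0.997 in MWT over CxWT, beside 0.01 and -0.04 over all genes.

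Before correction for GC content and length, the receptor and the adaptor each had similar ratios in both of these pairs. Trem2 had a log2 ratio of 0.89 ± 0.12 in CxH over MH and of 0.71 ± 0.13 in MWT over CxWT, close to the threshold of 0.7. Tyrobp had 1.35 ± 0.10 and 1.51 ± 0.11. The differences between the pairs, 0.17 ± 0.17 for Trem2 and -0.16 ± 0.15 for Tyrobp, were within counting error. Corrected for GC content and length, the ratios were 0.60 and 0.81 for Trem2, the first no longer called, and 0.995 and 1.34 for Tyrobp. Differences between these corrected ratios were not tested. With an exact test that assumes a variation of 0.2 between pools, Trem2 was not called in MWT over CxWT.

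The 4 lysosomal and phagocyte genes that were called had uncorrected ratios from 0.997 to 2.18, and 2 of them differed between the pairs beyond counting error. Gpnmb was similar in both, with 1.47 ± 0.11 in CxH over MH and 1.54 ± 0.15 in MWT over CxWT. Lgals3 had 2.04 ± 0.23 and 1.06 ± 0.23, a difference of 0.99 ± 0.33 in favour of CxH over MH. Clec7a had 1.07 ± 0.21 and 2.18 ± 0.16, a difference of -1.11 ± 0.27, with the larger ratio in MWT over CxWT. For Cst7 the ratios were 1.68 ± 0.26 and 0.997 ± 0.29, and the difference of 0.68 ± 0.39 was within counting error. The Cst7 call in MWT over CxWT (67 and 39 reads) was lost with the assumed variation of 0.2, with a log2 threshold of 1 and with a minimum of 100 reads. A difference was taken as beyond counting error when a two-sided normal test on the read counts passed 0.05, which does not say whether other pools of mice would differ.

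Apoe, Lpl and Spp1 were not called in either pair. Apoe had a log2 ratio of 0.35 ± 0.01 in CxH over MH and 0.02 ± 0.01 in MWT over CxWT. The depth thus resolved a 1.28-fold difference in the first pair that stayed below the threshold. With the correction for GC content and length the Apoe ratios were 0.07 and 0.29, so the second pair then had the larger one. Lpl had -0.12 ± 0.11 and 0.37 ± 0.16. Spp1 had 0.38 ± 0.11 and 0.53 ± 0.07, above 0 in both pairs before that correction. With it, Spp1 had 0.50 and 0.12, the second close to 0, and Lpl had 0.08 and 0.15.

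**Figure D2:**
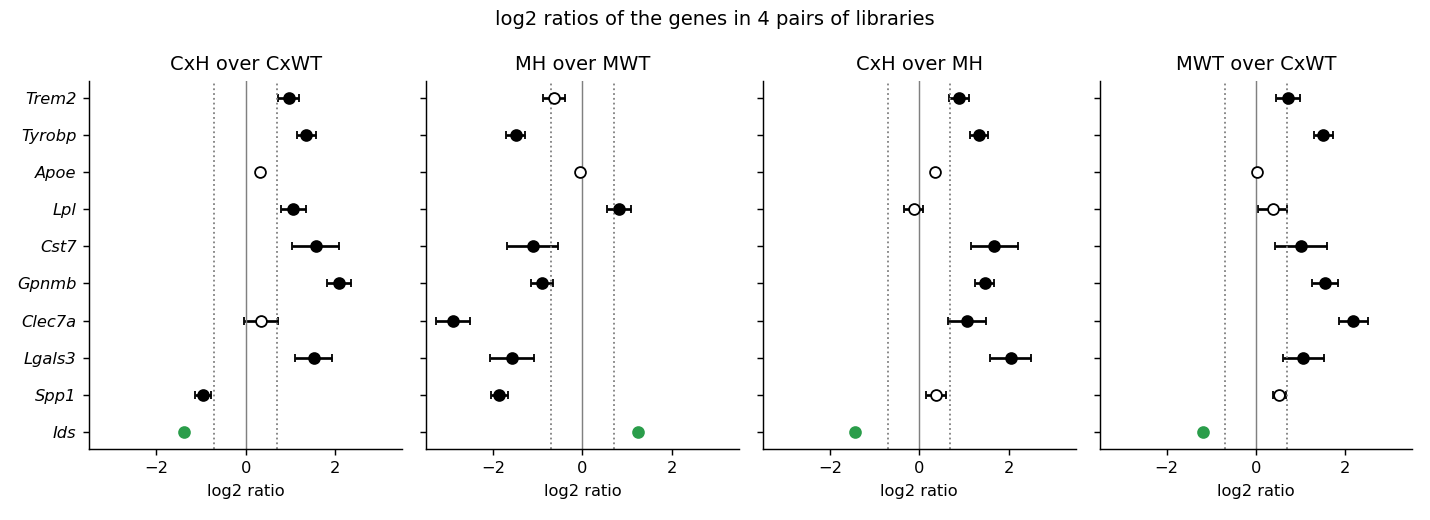
log2 ratio of each of the 9 genes and of Ids (green) in 4 pairs of libraries, with bars of 2 standard errors from counting; filled points were called, open points were not, and dotted lines mark 0.7 in size. Most of the genes lie above 0 in CxH over CxWT, below 0 in MH over MWT, and above 0 in both CxH over MH and MWT over CxWT, where Ids lies at -1.44 and -1.19.

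The remaining pairs set together libraries with like Ids levels and unlike area markers. In CxH over MWT, none of the 9 genes was called higher and 2 were called lower (Clec7a, -1.83 ± 0.14, and Spp1, -1.48 ± 0.08), against 15.6% and 15.1% of all genes. In MH over CxWT, 1 was called higher (Lpl, 1.19 ± 0.14) and 2 were called lower (Clec7a, -0.72 ± 0.23, and Spp1, -1.33 ± 0.10), against 6.41% and 8.89%. The median over the 9 genes was 0.30 in CxH over MWT and -0.04 in MH over CxWT, beside -0.04 and -0.11 over all genes. With the GC and length adjustment, Lpl (1.19) and Cst7 (0.83) were also called higher in CxH over MWT and the median there was -0.14, and with TMM or DESeq2 size factors Lpl was (0.74 and 0.73). Trem2 had 0.25 ± 0.11 and 0.07 ± 0.14, and Tyrobp -0.15 ± 0.08 and 0.01 ± 0.13. The Clec7a call in MH over CxWT rested on 68 and 101 reads, and with TMM factors its ratio was -0.62 and not called.

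**Figure D3:**
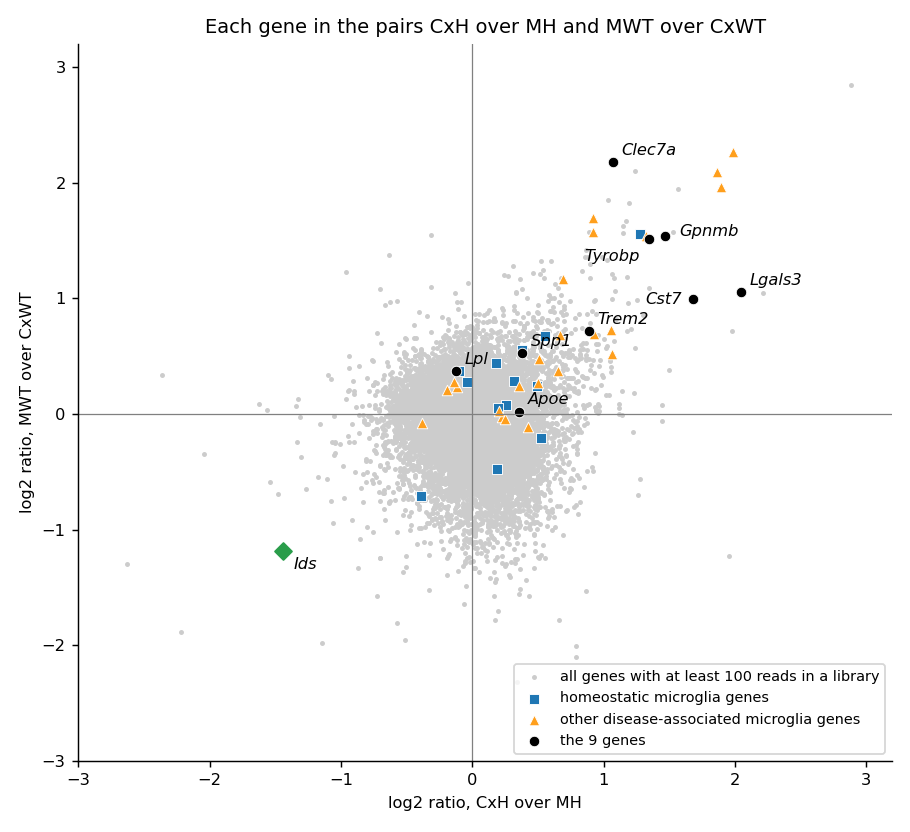
Each gene with at least 100 reads in a library (grey) by its log2 ratio in CxH over MH (horizontal) and in MWT over CxWT (vertical), with the 9 genes in black, the homeostatic microglia genes in blue, other disease-associated microglia genes in orange and Ids in green. Clec7a, Gpnmb, Tyrobp, Cst7, Lgals3 and Trem2 lie towards the upper right, while Apoe, Lpl, Spp1 and most homeostatic genes lie within the cloud of all genes.

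The windows around the transcription start were read for all of the 10 genes that had one, whether or not they were called. RefSeq promoters on GRCm38.p6, from 250 bases before each start to 50 bases from it, were at hand for 8 of the 10 genes, in 12 windows. Letters for 3 factors were searched on both strands. PU.1, the factor that sets the macrophage lineage, was searched as GAGGAAG. The MITF and TFE family, which drives lysosomal genes, was searched as TCACGTG and TCACATG, and AP-1, a factor of activated cells, as TGANTCA. The AP-1 letters stood in the windows of 4 of the 8 genes (Trem2, Cst7, Gpnmb and Itgax, the last without a level here), against 8.97% of 27025 genes with a window and 7.81% of 32851 windows. The PU.1 letters stood in 2 of the 8 (Trem2 and Spp1), against 15.4% of genes and 13.6% of windows, and the MITF and TFE letters in 0 of the 8, against 8.61% and 7.63%. A match is a description of the letters and does not show that a factor binds. The windows of Trem2 (chr17:48346151-48346450, plus strand), Cst7 (chr2:150570165-150570464, plus strand) and Gpnmb (chr6:49036268-49036567, plus strand) are shown because they hold the AP-1 letters and their genes were called in both pairs, and the window of Clec7a (chr6:129472730-129473029, minus strand) because it had the widest range of levels and holds none of the searched letters. Capitals mark the matches, 5′ to 3′ in the direction of the gene.
Trem2: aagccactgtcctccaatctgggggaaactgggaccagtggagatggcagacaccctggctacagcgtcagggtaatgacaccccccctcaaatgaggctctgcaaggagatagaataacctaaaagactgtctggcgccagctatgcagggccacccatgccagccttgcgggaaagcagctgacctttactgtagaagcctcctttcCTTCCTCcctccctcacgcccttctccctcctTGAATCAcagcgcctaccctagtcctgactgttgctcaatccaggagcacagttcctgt
Cst7: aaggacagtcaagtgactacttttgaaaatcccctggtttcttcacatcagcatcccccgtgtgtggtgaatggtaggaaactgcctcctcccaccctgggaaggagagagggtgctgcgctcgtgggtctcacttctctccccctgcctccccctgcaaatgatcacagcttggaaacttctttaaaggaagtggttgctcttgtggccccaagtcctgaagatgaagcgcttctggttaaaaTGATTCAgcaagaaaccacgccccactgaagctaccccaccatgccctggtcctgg
Gpnmb: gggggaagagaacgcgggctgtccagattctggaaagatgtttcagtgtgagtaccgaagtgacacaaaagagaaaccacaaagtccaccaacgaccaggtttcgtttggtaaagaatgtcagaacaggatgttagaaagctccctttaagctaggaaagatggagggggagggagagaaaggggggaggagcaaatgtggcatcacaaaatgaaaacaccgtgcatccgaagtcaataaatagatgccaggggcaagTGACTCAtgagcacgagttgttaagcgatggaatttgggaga
Clec7a: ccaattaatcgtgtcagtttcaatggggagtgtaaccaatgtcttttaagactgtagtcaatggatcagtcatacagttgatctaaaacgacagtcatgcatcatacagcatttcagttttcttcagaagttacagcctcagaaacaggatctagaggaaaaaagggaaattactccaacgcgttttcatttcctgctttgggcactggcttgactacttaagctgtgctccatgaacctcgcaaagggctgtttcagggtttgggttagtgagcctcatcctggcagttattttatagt

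Counting the first transcribed base as 1, the AP-1 match TGAATCA of Trem2 lay at -9 to -3, downstream of the PU.1 letters on the opposite strand at -41 to -35. In Cst7 the match TGATTCA ran from -6 to 1, across the start. In Gpnmb the match TGACTCA lay from 9 to 15, within the transcript.

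Genes of resting microglia were looked at to see how far the 9 genes moved apart from them. Of 15 homeostatic microglia genes, 13 were in the table. In CxH over MH, 1 of the 13 was called higher and none lower, and in MWT over CxWT 1 was called higher and 1 lower (Slc2a5, a sugar transporter). The gene called higher in both pairs was Fcrls, an Fc receptor-like gene of mouse microglia, with log2 ratios of 1.28 ± 0.06 and 1.56 ± 0.07. P2ry12, the purinergic receptor by which resting microglia sense injury, had -0.10 ± 0.06 and 0.37 ± 0.06, and Tmem119 had 0.52 ± 0.06 and -0.21 ± 0.08. Cx3cr1, the fractalkine receptor, had 0.32 and 0.28, and Csf1r, the receptor for the growth factor that keeps microglia alive, had 0.25 and 0.08. The median of the list was 0.25 in CxH over MH and 0.28 in MWT over CxWT. Less these medians, the 6 genes called in both pairs had log2 ratios from 0.63 (Trem2) to 1.79 (Lgals3) in the first pair and from 0.44 (Trem2) to 1.90 (Clec7a) in the second, with Trem2 under 0.7 in both. The other 3 lay near the list, with 0.10 and -0.26 for Apoe, -0.38 and 0.09 for Lpl, and 0.12 and 0.25 for Spp1. The summed level of the homeostatic list was 1044 RPM in CxH and 868 in MWT, against 794 in MH and 708 in CxWT, so CxH and MWT were the higher libraries there too.

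Pan-myeloid genes, which microglia share with other myeloid cells, moved more than the homeostatic list. Of 8 in the table, 6 were called higher in CxH over MH and 4 in MWT over CxWT, 3 of them in both (Aif1, C1qa and C1qb) and Cd53 in the second alone, and none was called lower. C1qa codes for a chain of the first complement component, and CxH held 161 RPM of it, MWT 128, MH 63.5 and CxWT 60.4. Its log2 ratios were 1.34 ± 0.03 in CxH over MH and 1.09 ± 0.04 in MWT over CxWT. The list medians were 0.95 and 0.71, beside 1.07 and 0.997 for the 9 genes. The summed pan-myeloid level was 485 RPM in CxH and 363 in MWT, against 233 in MH and 217 in CxWT. The part of myeloid cell number in the ratios of the 9 genes was not tested.

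Other genes of the disease-associated state followed in part. Of 26 listed, 23 were in the table, and 9 were called higher in CxH over MH and 8 in MWT over CxWT, with none called lower in either. The 7 called higher in both were Ccl3 and Ccl6 (chemokines), Cd52 and Cd84 (leukocyte surface proteins), Ch25h (cholesterol 25-hydroxylase), Ctsd (the lysosomal protease cathepsin D) and Lyz2 (lysozyme of phagocytes). MWT held 77.4 RPM of Lyz2, CxH 75.6, MH 20.3 and CxWT 19.8. The log2 ratios of Lyz2 were 1.90 ± 0.06 in CxH over MH and 1.963 ± 0.06 in MWT over CxWT. Ctsd, at 697 RPM in CxH, 621 in MWT, 376 in CxWT and 335 in MH, had 1.06 and 0.72. Cd68, a lysosomal membrane protein of macrophages, had 1.07 and 0.52 and was called in the first pair, and Ctsl, another lysosomal protease, had 0.69 and 1.16 and was called in the second. Axl, Csf1, Igf1 and Fabp5 were called in neither pair, with ratios between -0.39 (Fabp5 in CxH over MH) and 0.42 (Axl in CxH over MH). The medians of the 23 were 0.65 and 0.47.

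Among 11 genes downstream of or around the receptor, 4 were called higher in CxH over MH and 1 in MWT over CxWT, with none in both and none called lower. The 4 were Hcst, Plcg2, Btk and Spi1, and the 1 was Lat2. Plcg2, the phospholipase that TREM2 signals through, had 0.76 ± 0.15 and 0.51 ± 0.17 in the pairs, and Spi1, which codes for PU.1, had 0.72 ± 0.18 and 0.01 ± 0.26. Syk, the kinase recruited by TYROBP, had 0.49 ± 0.12 and 0.51 ± 0.17. Adam10 and Adam17, the proteases that shed TREM2 from the surface, had ratios between -0.08 and 0.22. Hcst, an adaptor like TYROBP, had 38 reads in CxH and 5 in MH. The list medians were 0.46 and 0.22.

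**Figure D4:**
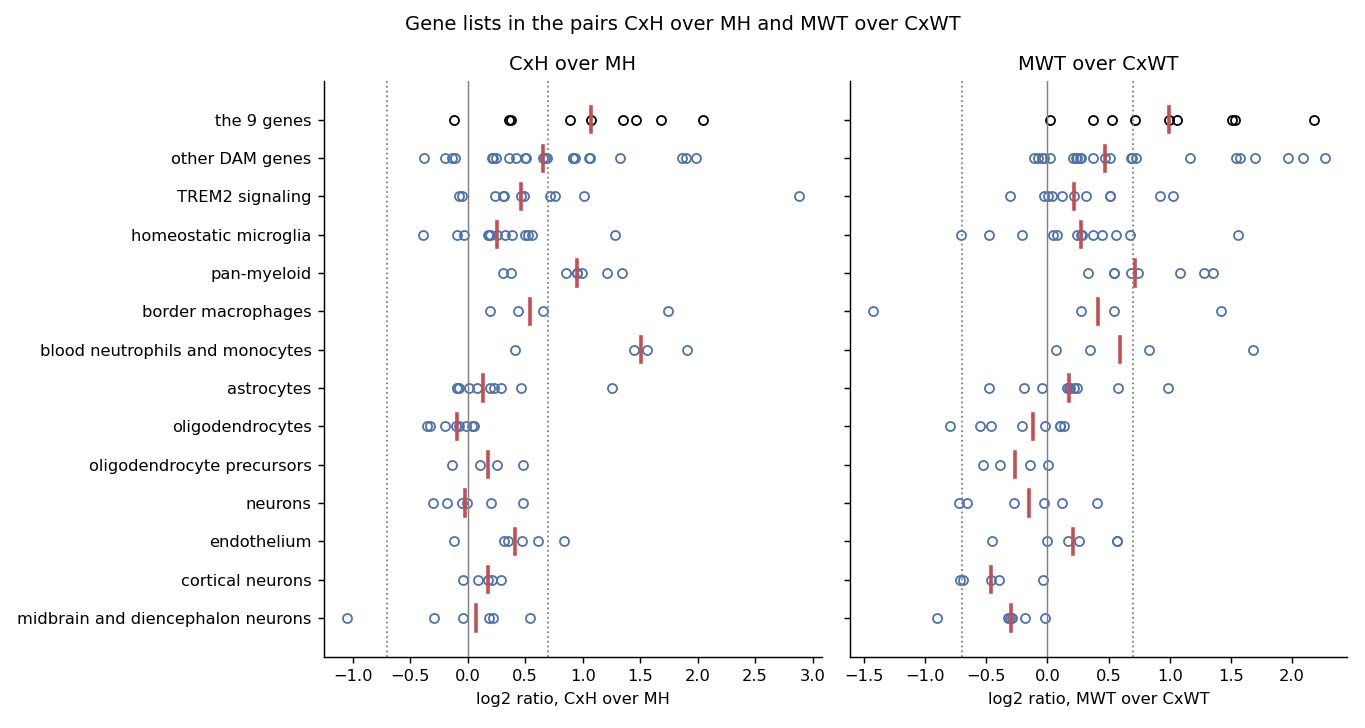
log2 ratio of every gene of each list (open circles) in CxH over MH (left) and MWT over CxWT (right), with the list median as a red bar and dotted lines at 0.7 in size; DAM stands for disease-associated microglia. The median of the 9 genes lies at 1.07 and 0.997, and those of the homeostatic microglia list at 0.25 and 0.28.

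Of the lists for other cells, those of blood cells, border macrophages and astrocytes held genes called in both of these pairs. Of 4 border macrophage genes in the table (7 listed), Ms4a7 was called higher in both pairs, and Cbr2 was called lower in MWT over CxWT (-1.43, 8 and 25 reads). Mrc1, the mannose receptor, had 0.19 and 0.54. The medians of these 4 genes were 0.54 and 0.41, and their summed level was 7.50 RPM (CxWT) to 10.7 RPM (CxH). Of 4 blood neutrophil and monocyte genes in the table (8 listed), S100a8 and S100a9, which code for calcium-binding proteins of neutrophils, were called higher in both, against 0.638% of all genes, at 0.428 to 2.38 RPM across the libraries. Ngp, a neutrophil granule gene, was called in CxH over MH but not in MWT over CxWT (1.56 and 0.08), and the medians of these 4 genes were 1.503 and 0.59, the first above that of the 9 genes. The part of blood cells and border macrophages in the ratios of the 9 genes was not tested. Gfap, the intermediate filament of reactive astrocytes, was called higher in both, and the other 9 astrocyte genes were called in neither. No gene of the neuron, oligodendrocyte, oligodendrocyte precursor or endothelium lists, nor of the lists of area neurons, was called higher in both. Of the area neuron genes, Slc17a6 was called lower in CxH over MH (-1.05) and En1 in MWT over CxWT (-0.90). The oligodendrocyte list summed to 9260 RPM in CxWT and 7395 in MWT, against 5066 in MH and 4865 in CxH, split as the area markers were.

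The genes whose profile over the 4 libraries lay nearest to the median profile of the 9 were Gfap, Hpse, Ctsd, Ifitm3, C4a, C1qa, Mpeg1, Fcer1g, Uqcrq and Myo1f. Nearness was the Euclidean distance between centred log2 RPM values, among 11986 other genes with at least 100 reads in a library, and it ran from 0.129 (Gfap) to 0.346 (Myo1f). The median profile was 0.52 in CxH and 0.47 in MWT, against -0.51 in CxWT and -0.71 in MH. Gfap had log2 ratios of 1.25 in CxH over MH and 0.99 in MWT over CxWT, and Hpse, which codes for heparanase, the enzyme that cleaves heparan sulfate, had 1.18 in both. Mpeg1, a pore-forming protein of macrophages, had 0.99 and 1.36. Of the 9 genes themselves, Tyrobp (0.397) and Trem2 (0.402) lay nearest to their own median profile, and Spp1 (1.51), Clec7a (1.48) and Lpl (1.46) farthest. With 4 libraries, many genes can share a profile.

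GC content moved with the ratios and in opposite directions in the pairs. Taking the 9811 genes that had 100 reads or more in each library, the Spearman correlation across genes between GC content of the transcript and the log2 ratio was 0.58 in CxH over MH and -0.63 in MWT over CxWT. The 9 genes had GC contents from 40.7% (Clec7a) to 59.6% (Apoe), beside a median of 50.5% over those 9811. With the ratios adjusted for GC content and length, Tyrobp, Cst7, Gpnmb, Clec7a and Lgals3 were called higher in both pairs, and Trem2 in MWT over CxWT.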

How the data were processed

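Each of the 4 conditions was sequenced as 1 library, from pooled RNA of 7 mice. The authors ran a SOLiD 3 Plus instrument and aligned the reads to NCBI37/mm9 with PASS, with at most 2 mismatches and no gap. The deposited counts are reads aligned to a single gene, kept where over 50% of the gene's length had coverage, and no normalization was applied to them. The gene annotation and the use of strand are not given in the sources used here.

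The genes and lists were chosen with earlier results of these data known. Of 12700 Entrez identifiers, 12690 matched a RefSeq symbol. Positions, GC content and length (longest protein-coding transcript) came from GENCODE vM1 on the same build. No annotated gene overlapped the 9 genes. RPM divide counts by the aligned reads that the study lists, and ratios set a count of 0 to 1. The likelihood ratio test on Poisson counts and its thresholds, p-value under 0.05 and log2 ratio of 0.7, are those of the study. The step was tested on simulated data. One marker of the lists is not reported here.

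Named are the 10 genes, Ids, genes of the lists where a list is described, the 10 nearest profiles and every gene of a set of 5 or fewer. Alternatives were column totals, edgeR TMM factors and DESeq2 size factors, a log2 threshold raised to 1, a minimum of 100 reads, p-values adjusted by Benjamini-Hochberg, an edgeR exact test with an assumed coefficient of variation of 0.2, 0.5 added to counts, and a correction for GC content and length. R 4.3.3 was used with edgeR 4.0.16 and DESeq2 1.42.0, and Python 3.11.15 with scipy 1.17.1, pandas 2.3.3, numpy 2.4.6 and matplotlib 3.10.9.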

Additional observations from a re-analysis of the deposited data

Results flagged for a closer look

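For 6 of the 9 genes and for Ids, the ratio of the libraries labelled Ids-ko over wt went one way in Cx and the opposite way in M, each with a p-value under 0.05 on the read counts. All 6 were higher in Cx and lower in M, against 4.22% of all genes, and 9.51% of all genes had opposite signs in either direction by the same rule. The difference of the log2 ratios, CxH over CxWT less MH over MWT, was 3.10 for Lgals3, 3.00 for Gpnmb, 2.86 for Tyrobp, 2.68 for Cst7, 1.60 for Trem2 and 0.37 for Apoe. For Ids it was -2.63, so the disrupted gene itself had the opposite sign. With 1 library per condition, whether the areas differ was not tested. In Apoe the ratio in M was -0.05 and turned positive with TMM factors (0.004) and DESeq2 size factors (0.005), and in Cx it was -0.01 after the correction for GC content and length. Area and label cannot be told apart here, since the libraries labelled MH, CxWT and MWT went against their labels in Ids or in area markers.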

How the results depend on the processing

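Of 84 counts of called genes and medians under the alternatives, 82 stayed within 1.5 times the count or within the 95% counting interval of a typical gene for the median, and 2 did not, both in CxH over MWT after the correction for GC content and length. There the number called was 4 (2 higher, 2 lower) in place of 2, with Lpl (1.19) and Cst7 (0.83) added, and the median turned from 0.30 to -0.14. Within that tolerance, the number called ranged over the alternatives from 5 to 7 in CxH over CxWT, 5 to 8 in MH over MWT, 5 to 6 in CxH over MH, 4 to 6 in MWT over CxWT and 2 to 3 in MH over CxWT. In MH over CxWT the median of -0.04 was 0.07 with TMM or DESeq2 size factors. Of the values of single genes, 397 kept their direction and their state as called or not called or, uncalled, changed sign within counting error, 19 lost a call, 8 gained one and 8 uncalled values changed sign beyond counting error. Clec7a in CxH over CxWT rose from 0.35 to 0.75 with the GC and length correction but stayed uncalled, since its p-value of 0.0621 on the read counts did not pass. A log2 threshold of 1 left Trem2 uncalled in every pair, Spp1 in CxH over CxWT, Cst7 in MWT over CxWT, Lpl and Gpnmb in MH over MWT and Clec7a in MH over CxWT. The assumed variation of 0.2 removed Trem2 and Cst7 in MWT over CxWT, Lpl in MH over MWT and Clec7a in MH over CxWT. The minimum of 100 reads, not among the single-gene values counted above, removed Cst7 in MH over MWT and in MWT over CxWT. Trem2 in MH over MWT gained a call with column totals (-0.70) and with the GC and length correction (-0.74). With TMM or DESeq2 size factors, Lpl gained one in CxH over MWT (0.74 and 0.73) and Gpnmb in MH over CxWT (0.74 in both), while Clec7a in MH over CxWT lost its own (-0.62 and -0.61), as it did with column totals (-0.69) and the GC and length correction (-0.55). The median of all genes shifted by over 0.1 with column totals in CxH over MWT (-0.11) and with TMM factors (0.11) and DESeq2 size factors (0.11) in MH over CxWT. No paired analysis was possible because each condition has 1 library, and for the same reason no replicate could be left out. Depth limits Cst7, Lgals3 and Clec7a, which had fewer than 100 reads in 1 or more libraries.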
